A study of Arabidopsis lyrata and Arabidopsis thaliana with 9 samples.

Results

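The 43 nuclear genes described here encode the light-harvesting antenna proteins and the subunits of photosystems I and II of Arabidopsis thaliana, and were listed by locus: 21 LHC genes (6 LHCA and 15 LHCB), 12 PSA genes and 10 PSB genes. All 43 were found among the 27176 gene models of the A. thaliana tables, with 1 counted model each, and the annotation used here gives each locus the name used for it. Total RNA came from inflorescences of wild type Col-0 plants after bolting and was sequenced as 3 strand-specific libraries. The plants grew in long days under standard greenhouse conditions. The series also holds 3 leaf and 3 inflorescence libraries of Arabidopsis lyrata, whose numeric gene identifiers could not be tied to these loci, so the photosynthesis genes were not analysed there and were compared with no other tissue or species. The levels below are therefore those of 1 group, described with the spread over its 3 libraries and with no test. Whether the libraries came from separate plants is not stated, so this spread may be technical.

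Photosystem II splits water and passes electrons through the cytochrome b6f complex and plastocyanin to photosystem I, which reduces ferredoxin. Chlorophyll-binding LHC proteins surround both photosystems and pass on the energy of absorbed light, the LHCA proteins to photosystem I and the LHCB proteins to photosystem II. The photosystem cores are made in the chloroplast from its own genome, while the antennae and the subunits named here are encoded in the nucleus and imported. In an inflorescence, green tissue includes the sepals, the young carpels and the stem. In a bulk sample, fewer green cells and less RNA per green cell cannot be told apart.

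The libraries held 6263918, 14004158 and 6330211 counts (libraries 1, 2 and 3). Levels are CPM, the share of a library's counts on the usual fixed scale. A member had a median of 7760 counts in a library and at least 43, so counting error is small for all but the lowest. Marker genes matched the label, but the list held no leaf marker, so leaf tissue in the samples could not be judged. The floral organ identity genes AP1, AP3, PI, AG and SEP3 stood at 97.1 to 267 CPM, of 4 seed storage genes 3 had no counts, of 4 root genes 2 had none, and the senescence gene SAG12 had none. A count of 0 over the 3 libraries allows a level of up to 0.113 CPM (3 counts, counting error only). The seed gene CRA1 had 4, 3 and 2 counts, the root gene WER 1, 1 and 0, and the root list's COBL9 stood at 6.09 ± 0.632 CPM. The tapetum genes A9 and GRP17 were detected in every library, GRP17 at 1637, 1894 and 1809.9 CPM. The summed level of the pollen genes VGD1 and PPME1 was 477 CPM in library 1, 669 in library 2 and 329 in library 3.

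The LHCB1 genes matter most for reading the counts, because they held more of them than any other family described here and resemble each other. LHCB1.2 (AT1G29910, chr1:10472280-10473502, minus strand), LHCB1.1 (AT1G29920, chr1:10474656-10475969, minus strand) and LHCB1.3 (AT1G29930, chr1:10477885-10479114, plus strand) lie close together in TAIR10.1, have 1 exon each and coding sequences of 804 bases. LHCB1.1 differs from LHCB1.3 at 31 of these bases and LHCB1.2 at 29. The first 120 coding bases of the 3 genes (TAIR10.1, from the start codon) show how few positions can tell their reads apart, with capitals marking a base that differs from LHCB1.3.
LHCB1.3: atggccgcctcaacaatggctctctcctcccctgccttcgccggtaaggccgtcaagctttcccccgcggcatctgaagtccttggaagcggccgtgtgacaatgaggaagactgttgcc
LHCB1.1: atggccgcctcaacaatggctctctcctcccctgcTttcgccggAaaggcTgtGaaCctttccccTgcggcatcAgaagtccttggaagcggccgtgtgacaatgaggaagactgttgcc
LHCB1.2: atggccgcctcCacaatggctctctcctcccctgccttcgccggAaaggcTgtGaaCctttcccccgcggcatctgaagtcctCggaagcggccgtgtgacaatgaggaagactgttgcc

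In that stretch LHCB1.1 differs from LHCB1.3 at 7 positions and LHCB1.2 at 6. LHCB1.5 (AT2G34420, chr2:14522524-14523568, minus strand) and LHCB1.4 (AT2G34430, chr2:14524607-14525918, plus strand) form a pair on chromosome 2, with coding sequences 91.4% identical to each other and 86.7% to 90.4% identical to those of the chromosome 1 genes. LHCB2.1 (AT2G05100) and LHCB2.2 (AT2G05070), also on chromosome 2, are 96.6% identical. Of all 50-base windows of the LHCB1.1 transcript, 20.5% also occur exactly in a transcript of another gene, and the shares are 10.6% for LHCB1.2, 17.0% for LHCB1.3, 13.7% for LHCB1.4 and 17.3% for LHCB1.5. They are 22.7% for LHCB2.1 and 28.2% for LHCB2.2. LHCA2 shares 8.76% of its windows with AT5G28450, a relative that had 1, 2 and 1 counts in libraries 1, 2 and 3. The other 35 genes share none. How the authors' counting treated reads that match more than 1 gene is not given in the sources used here. The split within LHCB1, and between LHCB2.1 and LHCB2.2, is therefore less certain than the family sums. If such reads were dropped, the family sums would be too low as well.

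Nearly all of these genes were among the abundant RNAs of the inflorescence. At a mean of 100 CPM or more stood 40 of 43, against 7.80% of all 27176 models, and at 1000 CPM or more stood 19 of 43, against 0.224%. The median of their mean levels was 875 CPM, where that of all models was 8.91 CPM. Together they took 5.25%, 5.30% and 5.17% of the counts of libraries 1, 2 and 3 (5.24% ± 0.0634, SD, n = 3). The 21 LHC genes held 3.22% ± 0.0540, the 12 PSA genes 0.919% ± 0.00939 and the 10 PSB genes 1.11% ± 0.0247. Of the 10 most abundant models of the tissue 4 were LHC genes, ranked 2 (LHCB1.3), 6 (LHCB1.5), 7 (LHCA4) and 8 (LHCA1), and 27 of the 43 were among the 100 most abundant. Below 100 CPM stood LHCA5, LHCA6 and LHCB7.

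**Figure D1:**
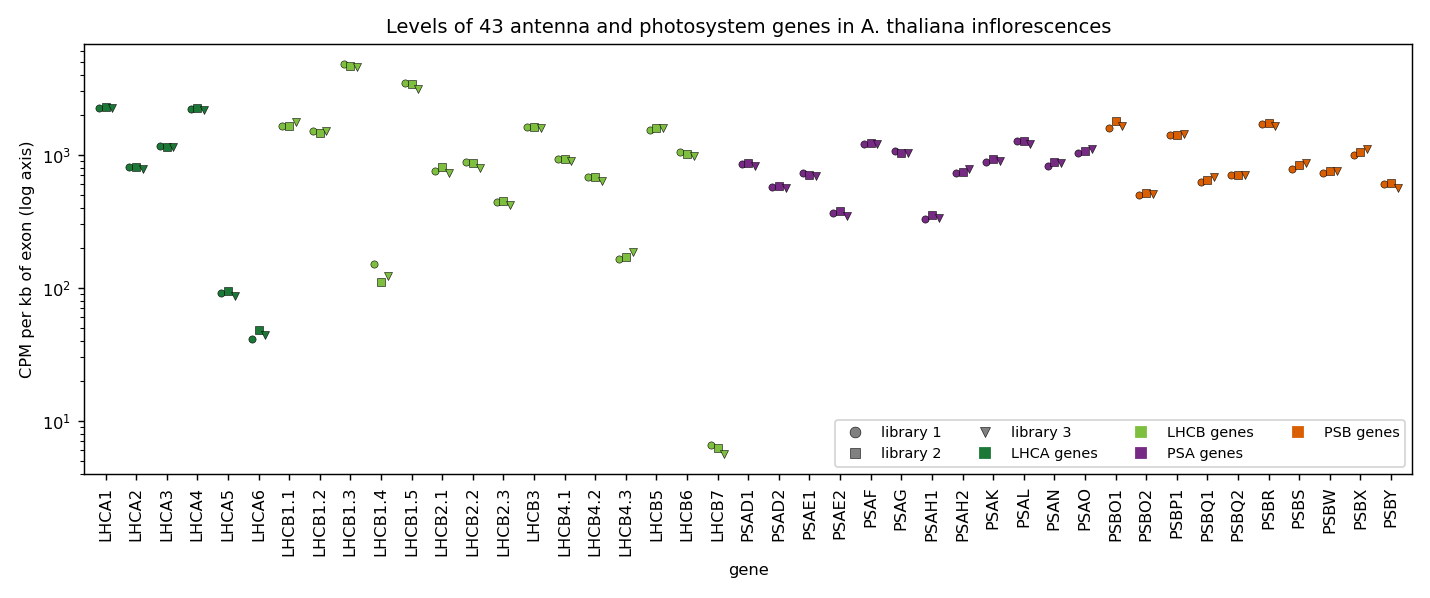
Level of each of the 43 genes in CPM per kb of exon (log axis), with 1 marker for each of the 3 A. thaliana inflorescence libraries and colours for the LHCA, LHCB, PSA and PSB genes. LHCB1.3 is the highest at 4705 CPM per kb, LHCA5, LHCA6 and LHCB7 are the lowest, and the 3 markers of a gene lie close together except for LHCB1.4.

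To compare genes, counts were divided by the exon length that the TAIR10.1 annotation gives for the model of that name (CPM per kb). Whether the authors counted over the same exons is not given in the sources used here. The antenna of photosystem I divided into abundant and scarce members. LHCA1 (AT3G54890) and LHCA4 (AT3G47470) encode the proteins of 1 of the antenna dimers of photosystem I. LHCA1 stood at 2257, 2301 and 2236 CPM per kb in libraries 1, 2 and 3, and LHCA4 at 2199.5, 2248 and 2164. LHCA1 was the higher in each library, though the ranges overlapped. In plain CPM LHCA4 was the higher, at 2848, 2911 and 2802 against 2668, 2720.05 and 2643 for LHCA1, with ranges apart, so their order turned with length.

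LHCA3 (AT1G61520) and LHCA2 (AT3G61470), which encode the proteins of the other dimer, were lower. LHCA3 stood at 1158, 1145 and 1136 CPM per kb and LHCA2 at 803, 813 and 777, and the ranges of LHCA4, LHCA3 and LHCA2 were apart from each other. LHCA5 (AT1G45474) and LHCA6 (AT1G19150) are known for linking photosystem I to the chloroplast NADH dehydrogenase-like complex. LHCA5 stood at 91.2, 94.0 and 87.1 CPM per kb and LHCA6 at 40.9, 47.7 and 43.8. LHCA1 was thus 51.3 times as high as LHCA6 per kb, and LHCA5 and LHCA6 together held 0.0135% ± 0.000622 of counts where LHCA1 to LHCA4 held 0.819% ± 0.0125.

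In the antenna of photosystem II, the LHCB1 genes, which encode the main protein of the LHCII trimers, were far ahead. The 5 LHCB1 genes summed to 11345 ± 271 CPM per kb, the 3 LHCB2 genes to 2050.1 ± 96.7 and LHCB3 (AT5G54270), the third protein of the trimers, stood at 1619 ± 13.6 (SD, n = 3). LHCB3 thus stood below the summed LHCB4 genes of the minor antenna, at 1765 ± 36.0, with ranges apart. LHCB1 alone took 1.35% ± 0.0302 of all counts. LHCB1.3 had 5978, 5717 and 5665 CPM in libraries 1, 2 and 3, which made it the highest of the 43 genes in every library. Per kb it reached 4860.3, 4648 and 4606.

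Within LHCB1 the counts were shared out unevenly and in nearly the same way in each library. LHCB1.3 held 43.3%, 42.7% and 42.8% of LHCB1 counts, LHCB1.5 held 25.8% ± 1.13, LHCB1.1 held 16.5% ± 0.885 and LHCB1.2 held 13.6% ± 0.358. LHCB1.4 held 1.43%, 1.08% and 1.22%. LHCB1.5 had 18.3, 24.6 and 20.1 times the counts of its chromosome 2 neighbour LHCB1.4, so neighbouring genes with closely related sequences differed widely in level. In LHCB2, LHCB2.1 held 41.9% ± 0.851, LHCB2.2 held 38.1% ± 0.841 and LHCB2.3 (AT3G27690) held 19.99% ± 0.286. LHCB2.1 had 1.05, 1.14 and 1.12 times the counts of LHCB2.2 but, per kb of exon, 0.854, 0.924 and 0.910 times, so their order turned with length.

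**Figure D2:**
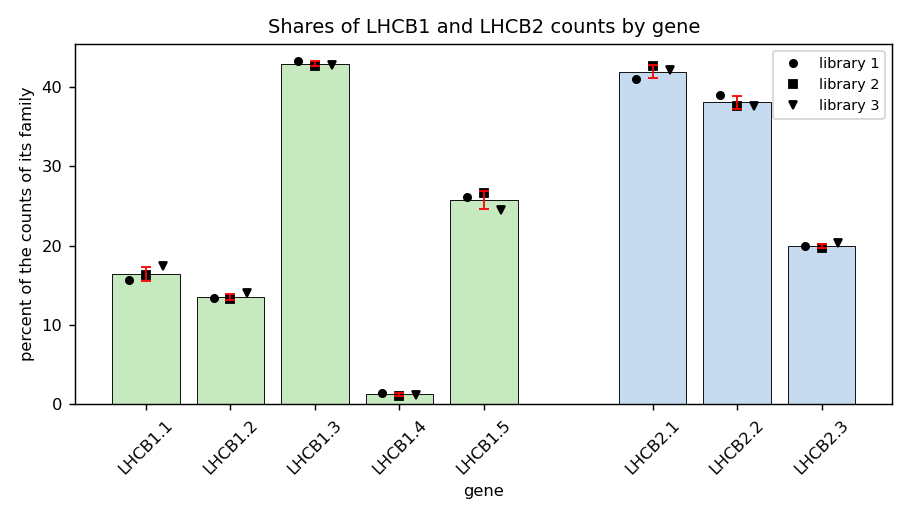
Share of the LHCB1 counts (left bars) and of the LHCB2 counts (right bars) taken by each gene, in percent. Bars are means, red error bars the SD and black markers the 3 libraries. LHCB1.3 takes 42.9% of LHCB1 counts and LHCB1.4 takes 1.24%, and the markers of a gene lie close to its bar.

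The minor antenna proteins link the trimers to the photosystem II core. LHCB5 (AT4G10340, also CP26) stood at 1566 ± 36.7 CPM per kb and LHCB6 (AT1G15820, also CP24) at 1014 ± 30.2. LHCB4 (CP29) has 3 genes (AT5G01530, AT3G08940 and AT2G40100). LHCB4.1 stood at 936, 937 and 899 CPM per kb, LHCB4.2 at 681, 684 and 639, and LHCB4.3 at 164, 169.7 and 186. These ranges did not overlap, and LHCB4.2 was 4.16, 4.03 and 3.43 times as high as LHCB4.3. LHCB7 (AT1G76570) was the lowest of the 43 genes with 50, 106 and 43 counts, or 7.98, 7.57 and 6.79 CPM. Over all 3 libraries it had 7.48 CPM with an exact 95% Poisson interval of 6.48 to 8.60, which covers counting error only, and it ranked 14189 among the models.

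The nuclear subunits of photosystem I had similar levels once paralogs were added up. Of the 12 genes, PSAL (AT4G12800) was the highest at 1251 ± 32.3 CPM per kb. PSAH1 (AT3G16140) was the lowest at 339 ± 10.3, a span of 3.69-fold. Both extremes changed in plain CPM, to PSAF at 1459 ± 16.9 and PSAE2 at 221 ± 8.69. Summed by subunit, the 9 subunits spanned 1.65-fold, from 859.7 ± 36.3 CPM per kb for PSAN to 1418 ± 31.4 for PSAD. The 3 subunits made from a pair of genes, PSAD, PSAE and PSAH, reached 1418, 1076 and 1086 CPM per kb as sums, while the highest of their 6 genes, PSAD1, stood at 848. PSAL and PSAF, made from 1 gene each, stood at 1251 and 1213. With coding length in place of exon length the span was 1.80-fold, and 2.16-fold in plain CPM.

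Among these subunits, PSAD and PSAE lie on the stromal side, where ferredoxin docks. PSAD1 (AT4G02770) had 1.78, 1.77 and 1.74 times the counts of PSAD2 (AT1G03130), or 1.499, 1.494 and 1.47 times per kb. PSAE1 (AT4G28750) had 2.63, 2.44 and 2.63 times the counts of PSAE2 (AT2G20260), or 2.003, 1.85 and 2.0003 times per kb. PSAH, PSAL and PSAO lie on the side where LHCII docks during state transitions. PSAH1 had 0.842, 0.880 and 0.801 times the counts of PSAH2 (AT1G52230) and 0.455, 0.475 and 0.433 times its level per kb, so PSAH2 was the higher in each library. PSAF (AT1G31330) and PSAN (AT5G64040), which lie towards the lumen where plastocyanin binds, stood at 1213 ± 14.1 and 859.7 ± 36.3 CPM per kb, and PSAG (AT1G55670) and PSAK (AT1G30380), which border the LHCA antenna, at 1049 ± 23.0 and 906 ± 24.9. PSAO (AT1G08380) stood at 1069 ± 36.5. The ranges of PSAO and PSAG overlapped, and so did those of PSAL and PSAF and those of PSAK and PSAN.

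Summed by subunit, photosystem II was more uneven than photosystem I. Its subunits spanned 3.67-fold per kb of exon, from PSBY at 594 ± 28.6 to PSBO at 2182 ± 110.3. Per kb of coding sequence the span was 2.52-fold. Taken singly, the 10 PSB genes spanned 3.34-fold per kb of exon and the 12 PSA genes 3.69-fold. PSBO, PSBP and PSBQ form the oxygen-evolving shield over the manganese cluster that splits water. PSBO1 (AT5G66570) stood at 1598, 1790.3 and 1636 CPM per kb and PSBO2 (AT3G50820) at 499.7, 517 and 505, and PSBO1 had 3.63, 3.94 and 3.68 times the counts of PSBO2. PSBP1 (AT1G06680) stood at 1411, 1417 and 1432 CPM per kb. PSBQ1 (AT4G21280) stood at 626, 644 and 684 and PSBQ2 (AT4G05180) at 708, 709.9 and 704, so PSBQ2 was the higher in each library, by less than PSBO1 over PSBO2.

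PSBR (AT1G79040), a subunit next to the shield, reached 1715, 1736 and 1637 CPM per kb, and its range overlapped that of LHCB1.1. PSBX (AT2G06520), a small membrane subunit, stood at 1054 ± 54.2. PSBS (AT1G44575), the sensor of non-photochemical quenching that protects plants in excess light, stood at 781, 838 and 871 CPM per kb. The small subunits PSBW (AT2G30570) and PSBY (AT1G67740) stood at 745 ± 15.9 and 594 ± 28.6. In the order of all 43 genes per kb, 22 of 42 neighbouring pairs had overlapping ranges, most of them in the middle of the order between PSAO at 1069 and PSBQ2 at 707 CPM per kb. Without library 3 the count was 13. The 5 lowest genes, LHCB4.3, LHCB1.4, LHCA5, LHCA6 and LHCB7, were each apart from the next.

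**Figure D3:**
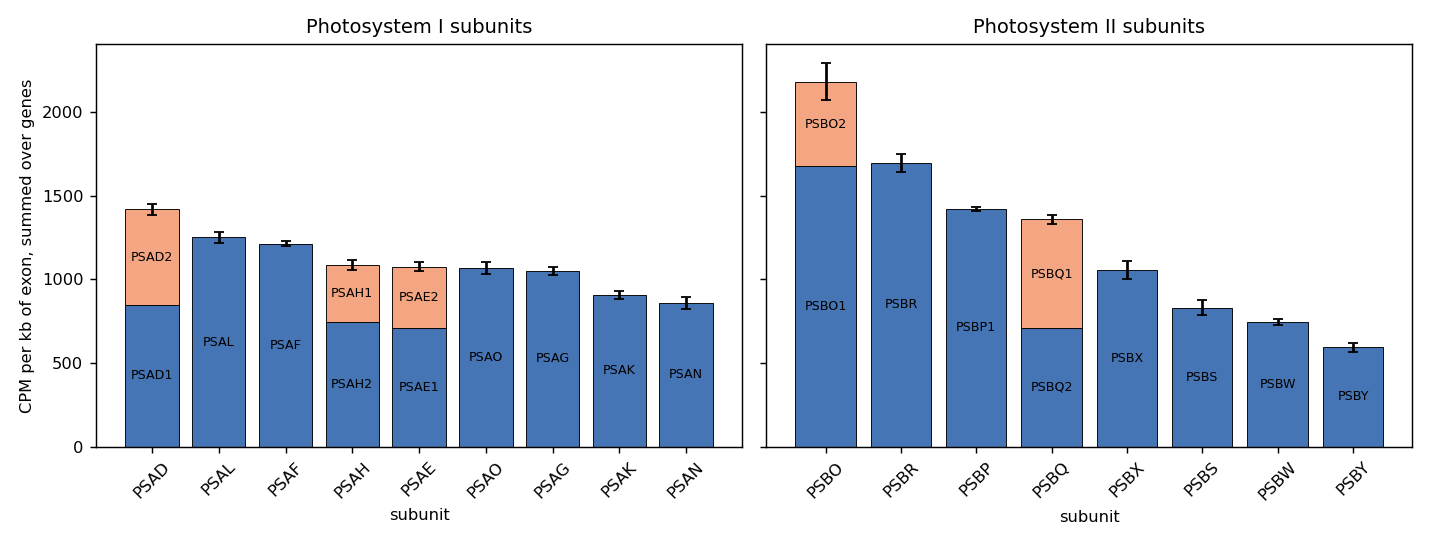
Levels of the photosystem I (left) and photosystem II (right) subunits in CPM per kb of exon, as bars stacked by gene where a subunit has more than 1 gene. Black error bars are the SD of the sum over the 3 libraries. The 9 photosystem I subunits lie between 859.7 and 1418, and the 8 photosystem II subunits between 594 and 2182.

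The levels of these genes varied little between the libraries. The median coefficient of variation (CV, SD over mean) of their CPM was 3.03%, with a range from 0.470% for PSBQ2 to 15.8% for LHCB1.4, where the median over the 2120 models at 100 CPM or more was 4.65%. Of the 43 genes, 32 lay below 4.65%. From their mean counts, counting error alone would give the 43 genes a median CV of about 1.13%. Without library 3 the median CV of the 43 genes was 1.92%, the lowest value with any 1 library left out. At 500 CPM or more, where spread depends less on counting, the median over all 3 libraries was 2.83% for 36 of the genes and 4.54% for 163 other models. PSBQ2 stood at 818, 819.97 and 813 CPM, LHCB3 at 2016, 2025 and 1992, and PSBP1 at 1906, 1914 and 1935. LHCB1.4 stood at 197, 145 and 162 CPM, with library 1 the highest.

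LHCB1.4, 25% or more higher in library 1 than in library 2, was the only gene of the 43 that differed by so much between any pair of libraries. Of all models, 9.14% were at least 25% higher in library 1 than in library 2 and 9.63% the other way. The shares were 13.2% and 10.4% for library 1 against library 3, and 11.8% and 8.47% for library 2 against library 3. These shares include many models with few counts. Among models with a mean of at least 100 CPM, 0.660% passed this mark with library 1 above library 2 and 1.51% the other way, with 2.31% and 0.991% for library 1 against library 3, and 2.12% and 0.519% for library 2 against library 3. A small lean was seen in direction: library 2 was above library 3 for 31 of the 43 genes, library 1 above library 3 for 26, and library 1 above library 2 for 11. Of the 2120 models at 100 CPM or more, the shares in the same directions were 43.1%, 45.8% and 52.7%. The summed pollen genes had the same order of libraries, and their part in this lean was not tested.

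**Figure D4:**
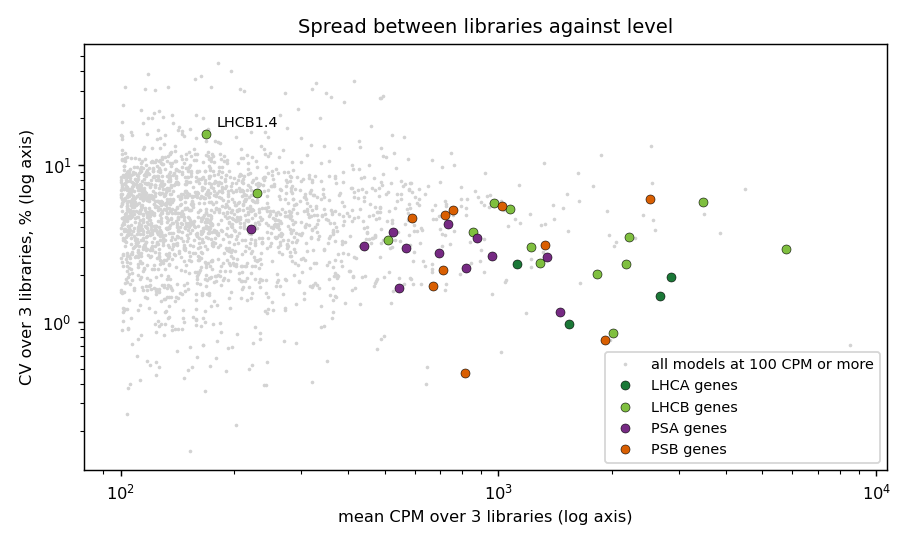
CV of CPM over the 3 libraries in percent against mean CPM (both log axes) for all models at 100 CPM or more (grey) and for the LHCA, LHCB, PSA and PSB genes at that level (colours). Most coloured points lie at or below the middle of the grey cloud, and LHCB1.4 at 15.8% lies at its upper side.

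Of these genes, 16 overlap an annotated gene on the opposite strand, which matters because the use of strand in counting is not given in the sources used here. They have 19 such neighbours, of which 15 were listed in the tables. The level of the neighbour was under 10% of that of the photosynthesis gene for 13 of the 15, with a median of 1.95%. It was 11.8% for PSAE2 and 20.1% for PSAN. For LHCB1.3 it was 1.31%. The neighbour levels come from the same counts, so they set no limit on reads gained or lost where genes overlap.

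The genes that surround the photosystems in the pathway were described from a list of 45, in plain CPM not divided by length. Of these, 30 stood at 100 CPM or more, against 7.80% of all models, and 4 at 1000 CPM or more, against 0.224%. All 11 genes of electron transport and ATP synthase stood at 100 CPM or more. PETE2, the main plastocyanin, was at 1486 ± 79.6 CPM and the ferredoxin FD2 at 1107 ± 49.95. The other ferredoxin FD1 was at 246 ± 8.48 and the other plastocyanin PETE1 at 127 ± 4.91. Per kb of exon, FD2 stood at 1124 ± 50.7 and PETE2 at 1103 ± 59.1, with overlapping ranges, so their order turned with length. Of 10 chlorophyll synthesis genes, 9 stood at 100 CPM or more. CHLH, a subunit of magnesium chelatase, was at 1964 ± 70.5 CPM and CRD1, of the cyclase step, at 1015 ± 6.53. Per kb of exon CRD1 was the higher, at 680 ± 4.37 against 413 ± 14.8 for CHLH. DVR was at 111 ± 3.44 CPM and PORA, the protochlorophyllide reductase of dark-grown seedlings, at 8.22 ± 0.721.

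A list of 12 genes of assembly, protein insertion and state transitions had a median of 156 CPM, against 171 CPM for the 10 chlorophyll synthesis genes. Of the 12, 7 reached 100 CPM, where 7.80% of all models did. CURT1A, which curves thylakoid membranes, led them at 387 ± 18.3 CPM, followed by the assembly factor PSB27 at 290.02 ± 6.84. The lowest in plain CPM were the antenna phosphatase TAP38 at 67.5 ± 6.65 and the kinase STN8 at 79.6 ± 3.89. Per kb of exon, STN7 of the same list was the lowest at 39.8 ± 2.92. STN8 stood at 42.0 ± 2.05 and TAP38 at 43.5 ± 4.29 per kb, with overlapping ranges. Of 6 distant LHC relatives, 2 reached 100 CPM. LIL3.2 was at 208 ± 4.71 CPM and LIL3.1 at 114 ± 3.34, and the light stress proteins ELIP1 and ELIP2 were the lowest at 32.3 ± 2.63 and 15.2 ± 1.45. Of 6 regulators, 1 reached 100 CPM, a count too small to set apart from the 7.80% of all models. GUN1, which acts in chloroplast-to-nucleus signalling, was at 245 ± 14.0 CPM, followed by GLK1, an activator of antenna genes, at 61.5 ± 6.03 CPM. The light-signalling factor HY5 was at 12.2 ± 1.24 and the GATA factor GNL at 2.26 ± 0.431.

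Promoters were searched for 4 short motifs, among them the G-box and the GATA motif known from light-regulated genes, in the 250 bases before the annotated gene start (TAIR10.1), on both strands. The motif CCAAT was found before 19 of the 21 LHC genes, 7 of the 12 PSA genes and 2 of the 10 PSB genes, where 46.0% of 27443 promoters of protein-coding genes hold it. All 9 genes of the trimer proteins had it, but these include the closely related LHCB1 and LHCB2 genes and are not independent cases. CACGTG (the G-box) was found before 9 of the 43 genes, against 6.49% of all promoters, GATAAG before 9 of 43, against 12.3%, and TATAAA (the TATA box) before 19 of 43, against 47.3%. None of the 4 motifs contains another. A match is a run of letters, not a binding site, and some windows overlap a neighbouring gene.

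The promoters of 3 LHCB1 genes are printed because these closely related genes stood at very different levels. LHCB1.3 and LHCB1.5 were the highest of the 43 genes and LHCB1.4 was among the lowest. Capitals mark CCAAT or TATAAA, and no window overlaps another annotated gene.
LHCB1.3 promoter, chr1:10477635-10477884, plus strand: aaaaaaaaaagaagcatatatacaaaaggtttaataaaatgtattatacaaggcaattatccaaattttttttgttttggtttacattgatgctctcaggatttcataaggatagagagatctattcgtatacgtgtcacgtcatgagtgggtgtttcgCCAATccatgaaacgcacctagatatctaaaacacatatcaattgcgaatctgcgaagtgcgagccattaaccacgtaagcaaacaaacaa
LHCB1.5 promoter, chr2:14523569-14523818, minus strand: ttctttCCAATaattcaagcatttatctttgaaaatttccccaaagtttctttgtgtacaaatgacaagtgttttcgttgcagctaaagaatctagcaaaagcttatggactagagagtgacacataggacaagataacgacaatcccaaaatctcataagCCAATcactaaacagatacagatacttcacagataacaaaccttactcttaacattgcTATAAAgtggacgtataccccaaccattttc
LHCB1.4 promoter, chr2:14524357-14524606, plus strand: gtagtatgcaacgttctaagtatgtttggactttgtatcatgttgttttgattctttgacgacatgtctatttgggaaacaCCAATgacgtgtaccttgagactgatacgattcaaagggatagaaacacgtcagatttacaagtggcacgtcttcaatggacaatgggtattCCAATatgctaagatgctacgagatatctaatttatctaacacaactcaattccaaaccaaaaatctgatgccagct

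CCAAT starts 91 bases before the gene start in LHCB1.3, 244 and 89 bases before it in LHCB1.5, and 169 and 77 bases before it in LHCB1.4. LHCB1.5 alone of the 3 has TATAAA, 31 bases before the start.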

How the data were processed

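RNA was measured in 3 A. thaliana inflorescence libraries, made as directional RNA-seq from total RNA per the labels' protocols. The authors deposited raw counts per gene model, 1 table per library. The submitters' processing notes name TAIR10. The aligner, the counting tool and whether counting used strand were not given in the sources used here. The A. lyrata tables were not used.

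Members were found by locus. CPM was computed from raw library totals. Positions, exon and coding lengths, promoters and opposite-strand neighbours come from the RefSeq annotation of TAIR10.1, in which 26665 of 27176 counted models were matched by model name. The deposited tables give no coordinates. Shared windows of 50 bases were exact matches to transcripts of other genes, and coding identity came from global alignment (Biopython 1.88). Log ratios used a pseudocount of 0.5. No test was made, since the genes could be identified in 1 group only. Chi-square values per model of 2.41 to 3.47 between libraries were above counting noise, so none repeats another. CV and ratio computation was tested on simulated counts. Every member was named. Of the other photosynthesis genes, the 2 highest and 2 lowest of each group by mean CPM were named. AT5G28450, a relative of LHCA2, and STN7, the lowest of its group per kb, were named outside that rule. Members and lists were chosen with earlier results of these data known. Alternatives were TMM (edgeR 4.0.16), DESeq2 1.42.0 size factors, upper-quartile scaling, filterByExpr, other lengths, pseudocounts and leaving out each library. Python 3.11.15 and R 4.3.3 were used.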

Additional observations from a re-analysis of the deposited data

How the results depend on the processing

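No paired analysis was possible because the genes could be identified in 1 group only. The 129 mean levels of single genes under TMM, DESeq2 and upper-quartile scaling moved by at most 0.165%, all less than the spread between libraries. The 129 with 1 library left out moved by at most 8.67% (LHCB1.4). A mean over 3 libraries always moves by less than their SD when 1 is left out, so that SD is no yardstick here. Leaving out the 16 genes over an opposite-strand gene lowered the share of counts from 5.24% to 2.91%, by construction. It became 0.539% for LHCA, 0.626% for the trimer LHCB genes, 0.370% for the other LHCB genes, 0.588% for PSA, 0.460% for the oxygen-evolving PSB genes and 0.322% for the other PSB genes. Length changed spans: 1.80-fold (coding) and 2.16-fold (plain CPM) for PSA, 2.52-fold and 4.48-fold for PSB. The ratio of LHCB2.1 to LHCB2.2 was 0.896 per kb of exon against 1.103 in counts. Of 28 length-scaled pair ratios, 11 others moved beyond their spread with no change of direction. Without 1 library, 13 to 17 neighbouring pairs overlapped and the median CV was 1.92% to 3.24%, both lowest without library 3; a range over fewer libraries is narrower. Models at least 25% apart, 18.8%, 23.6% and 20.2% between libraries 1 and 2, 1 and 3, and 2 and 3, fell with a pseudocount of 5 to 3.47%, 6.29% and 4.88%, and among models at 100 CPM or more to 2.17%, 3.30% and 2.64%. Among models passing filterByExpr, 12.3% stood at 100 CPM or more and 0.353% at 1000.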
